A study of Mus musculus with 12 samples.

Results

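MAP kinase phosphatases are the dual-specificity enzymes that switch off the MAP kinases, and 10 of their genes were followed here in mouse macrophages given house dust mite (HDM) allergen: Dusp1, Dusp2, Dusp4, Dusp5, Dusp6, Dusp7, Dusp8, Dusp10, Dusp14 and Dusp16. They were chosen by symbol from the 50559 genes of the count table, and all 10 were among the 13530 genes with enough reads to be tested. The choice was made with earlier results of these data known. The cells were bone marrow-derived macrophages, grown from the marrow of C57BL/6 mice, and the labels name no genetic change in them. The HDM group (6 libraries) received the allergen for 1 h and the vehicle group (6 libraries) received vehicle for the same time. The series' title concerns the signalling scaffold AKAP79/150, and these libraries hold no group in which that scaffold differs. The labels leave unsaid whether each library had its own mouse or culture. The p-values therefore rest on the spread among these libraries, which may be technical.

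A MAP kinase (ERK, JNK or p38) is active only while a threonine and a tyrosine in its activation loop both carry phosphate, and these phosphatases remove both. Several of their genes are themselves switched on within minutes by the pathways that the enzymes shut down, so the family forms a delayed negative feedback on signalling. In macrophages the best studied member, Dusp1, restrains p38 and JNK and with them the output of inflammatory cytokines after microbial stimuli. The family is usually sorted into inducible enzymes of the nucleus, cytoplasmic enzymes specific to ERK, and enzymes that prefer JNK and p38, and the results below follow that order.

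Counted reads per library ran from 19.7 to 62.4 M with vehicle and from 19.8 to 119.7 M with HDM. The libraries numbered 5 and 6 of both treatments stood apart from those numbered 1 to 4 along the first principal component, which held 48.2% of the variance, so values are also given for the 2 sets of numbers where it matters. The labelled cell type was checked on 8 macrophage markers, which were all present and summed to 16338 to 20808 CPM (counts per M reads, TMM-scaled) over the libraries. Marker genes of dendritic cells summed to at most 1.61 CPM, of neutrophils to at most 6.47 CPM and of lymphocytes to at most 4.61 CPM. No gene of any marker list was called by treatment, and with the library number as a block 1 gene of the stroma and endothelium list fell. Some marker sums moved with the sets: 7 genes of stroma and endothelium summed to 12.6 to 15.9 CPM in numbers 1 to 4 and to 33.7 to 39.6 CPM in numbers 5 and 6. Most of that sum was Kdr, with means of 17.7 CPM with vehicle and 19.2 CPM with HDM. The 8 genes of mast cells, basophils and eosinophils summed to 3.02 to 5.48 and 7.14 to 8.68 CPM, with Mcpt8, Fcer1a and Ms4a2 at 0. Siglecf made up most of it, with means of 4.18 CPM with vehicle and 4.83 CPM with HDM. In the other direction, 6 genes of red cells and megakaryocytes summed to 168 to 198 CPM in numbers 1 to 4 and to 97.2 to 109.6 CPM in numbers 5 and 6, with Hbb-bs and Hba-a1 at 0. Nearly all of that sum was Pf4, with means of 153 CPM with vehicle and 159 CPM with HDM. Whether other cells lie behind these sums, and their part in any result, was not tested.

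After 1 h of HDM, 6 of the 10 phosphatase genes rose, none fell and 4 did not pass the test. The risers were Dusp1, Dusp2, Dusp4, Dusp5, Dusp6 and Dusp14, called by edgeR's quasi-likelihood test at a Benjamini-Hochberg adjusted p under 0.05 over all tested genes. By the same rule 2.9% of all tested genes were called higher and 2.47% lower, 5.37% in all. In 5 of the 10 genes, all of the risers but Dusp14, every HDM library lay above every vehicle library, which held for 2.32% of tested genes. The median log2 fold change of the 10 was 1.03, beside -0.00 over all tested genes. As the 10 were chosen with earlier results known, these contrasts are descriptions, and no enrichment was tested. All of the 10 but Dusp10 were higher with HDM within each of the 6 library numbers. The share of all tested genes for which that held is not given here. Such ratios, like the block below, pair libraries by number, a pairing that the labels do not state. With the library number as a block in the fit, 9 of the 10 rose, Dusp7, Dusp8 and Dusp16 being added, against 7.9% of tested genes called higher in that fit. In such bulk RNA, a change in the RNA per cell and a change in how many cells carry it cannot be told apart.

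**Figure D1:**
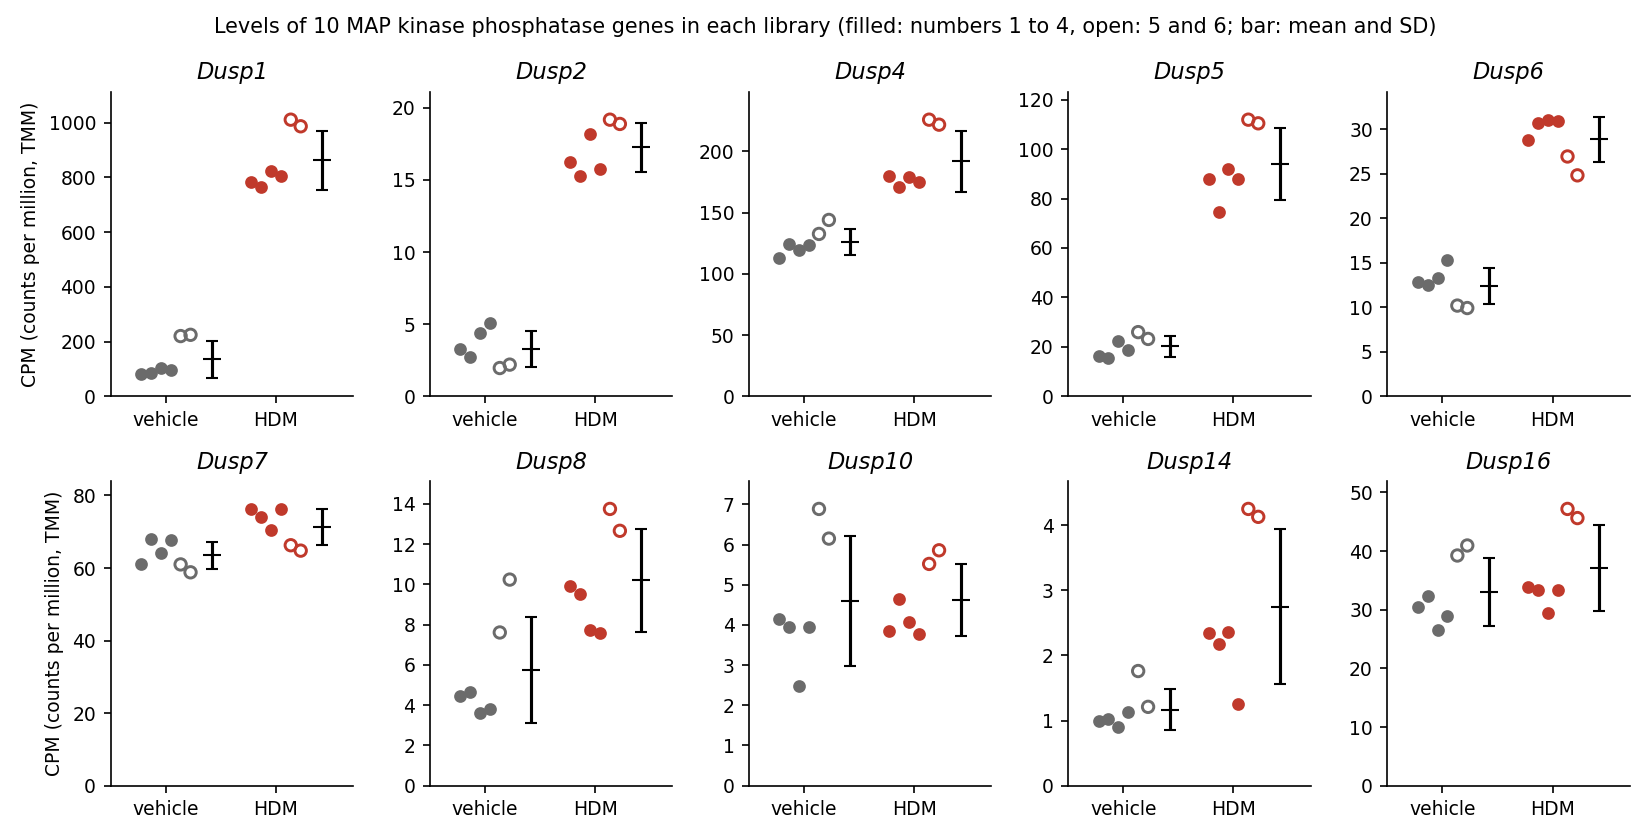
Level of each phosphatase gene (vertical axis, CPM, linear from 0, a scale per panel) in the 6 vehicle and 6 HDM libraries, filled points for library numbers 1 to 4 and open points for 5 and 6, bars for the mean and SD. Dusp1, Dusp2, Dusp4, Dusp5 and Dusp6 show no overlap between treatments, and the open points of Dusp1 sit highest in both groups.

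All 4 inducible nuclear enzymes rose, and 3 of them had the largest fold changes of the 10 genes. Dusp1, also called MKP-1, acts on p38, JNK and ERK in the nucleus. With vehicle its level ran from 82.8 through a median of 98.9 to 225.0 CPM, and with HDM from 765 through 815 to 1011 CPM. The lowest HDM library was thus above the highest vehicle library, and the 2 high vehicle libraries were numbers 5 and 6. The means were 135 ± 68.2 and 863 ± 107 CPM (SD, n = 6 each), or 2.68 ± 0.27 (SE) in log2 fold change with adjusted p = 3.93e-05, a 6.40-fold rise. It was the rise of rank 29 by fold among all tested genes.

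Dusp2, or PAC-1, is a nuclear enzyme of activated leukocytes that acts on ERK and p38. It was scarce with vehicle, at 1.97 to 5.12 CPM with a median of 3.01, and stood at 15.3 to 19.2 CPM with a median of 17.2 after HDM. The groups did not overlap. In contrast to Dusp1, the lowest vehicle levels were those of numbers 5 and 6. The log2 fold change was 2.38 ± 0.20 (adjusted p = 4.76e-06), from a mean of 3.28 ± 1.25 to 17.3 ± 1.69 CPM. The smallest count behind these values was 38 reads.

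Dusp5 is a nuclear enzyme specific to ERK. Its vehicle libraries held 15.4 to 26 CPM with a median of 20.6, and its HDM libraries 74.5 to 111.9 CPM with a median of 90.0. The groups were far apart, and the ratio of HDM to vehicle was even across library numbers, from 4.13 to 5.42. Its log2 fold change of 2.22 ± 0.14 had the smallest p of the 10 genes (adjusted p = 3.97e-07).

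Dusp4, or MKP-2, is the other nuclear member and acts on ERK and JNK. It was already abundant with vehicle, at 112.9 to 144.0 CPM with a median of 124, and reached 171 to 226 CPM with a median of 179 with HDM. No vehicle library reached the lowest HDM library, yet the step was small, 1.52-fold or 0.61 ± 0.08 on the log2 scale (adjusted p = 0.000491). When the counts of neighbouring numbers were summed to 3 samples per group, the change was 0.60 and no longer passed the test (adjusted p = 0.119).

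**Figure D2:**
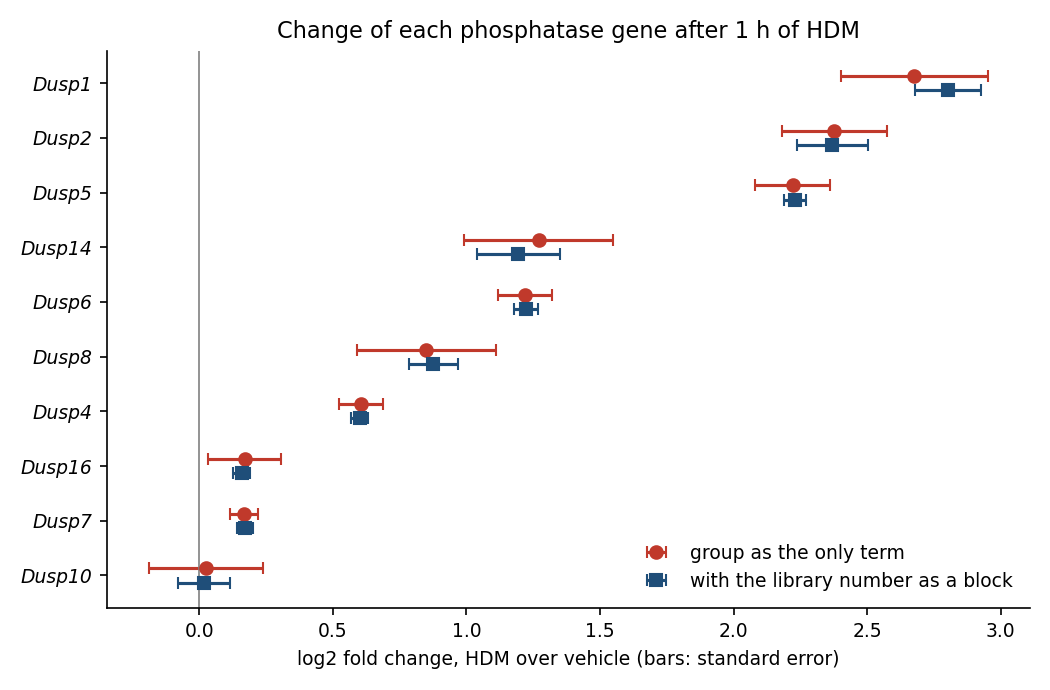
Log2 fold change of HDM over vehicle (horizontal axis, bars for the standard error) of each of the 10 genes, for the fit on treatment alone and the fit with library number as a block. Dusp1, Dusp2 and Dusp5 lie above 2 in both, and Dusp10 lies at 0.02 in both.

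Since 6 of the 10 genes rose within 1 h, the DNA just before the start sites of the family was searched for the letters that factors of rapid transcription recognise. RefSeq windows of 250 bases (build GRCm38.p6) were matched by symbol for 9 of the 10 genes, and Dusp4 was not among them. Both strands were searched for the full cAMP response element TGACGTCA, its core TGACG, the AP-1 site TGANTCA, the NF-kB site and the CArG box, the site of the serum response factor. The full element was in 1.55% of 32851 promoter windows, its core in 17.8%, the AP-1 site in 6.75%, the NF-kB site in 3.90% and the CArG box in 1.47%. The full element always holds the core. Shown are the 3 members with a full element or a CArG box, and Dusp2 as a strong riser with none of the 5 motifs in its window. Each is 5′ to 3′ on the gene's strand and ends at the base before the start site. Capitals mark the element, its core and the CArG box.
Dusp1, chr17:26508473-26508722, minus strand: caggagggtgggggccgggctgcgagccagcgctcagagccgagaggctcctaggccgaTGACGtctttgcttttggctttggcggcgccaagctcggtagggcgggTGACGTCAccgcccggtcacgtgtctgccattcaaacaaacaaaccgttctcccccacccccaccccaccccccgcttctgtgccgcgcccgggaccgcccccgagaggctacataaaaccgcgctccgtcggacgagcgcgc
Dusp5, chr19:53528895-53529144, plus strand: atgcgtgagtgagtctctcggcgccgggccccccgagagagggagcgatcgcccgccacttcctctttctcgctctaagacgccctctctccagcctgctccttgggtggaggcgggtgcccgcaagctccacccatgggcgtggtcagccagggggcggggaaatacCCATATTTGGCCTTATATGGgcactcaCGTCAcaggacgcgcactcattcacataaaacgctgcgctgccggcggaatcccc
Dusp8, chr7:142095285-142095534, minus strand: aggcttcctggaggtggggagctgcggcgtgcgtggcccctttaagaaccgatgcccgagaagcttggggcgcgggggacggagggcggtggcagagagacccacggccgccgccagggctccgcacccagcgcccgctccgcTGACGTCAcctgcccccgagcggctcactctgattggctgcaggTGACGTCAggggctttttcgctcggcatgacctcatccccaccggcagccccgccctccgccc
Dusp2, chr2:127335909-127336158, plus strand: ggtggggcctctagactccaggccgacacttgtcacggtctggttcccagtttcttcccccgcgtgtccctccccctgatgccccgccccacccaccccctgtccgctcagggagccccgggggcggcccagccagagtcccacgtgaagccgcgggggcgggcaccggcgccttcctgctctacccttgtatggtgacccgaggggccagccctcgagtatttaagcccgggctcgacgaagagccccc

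Counting back from the start site, the full element of Dusp1 begins at -143 and a separate core at -191. In Dusp5 a pair of CArG boxes lie end to end from -82 to -63, and a core on the opposite strand begins at -55. Dusp8 holds the full element at -107 and again at -63, and Dusp16 holds a core alone at -70. Neither the AP-1 site nor the NF-kB site was found in any of the 9 windows, which says only that these letters are not within 250 bases. A match is a description of letters and not of a bound site. The log2 fold changes were 2.68 for Dusp1 and 0.85 for Dusp8, and any part of these letters in them was not tested.

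Of the 2 cytoplasmic enzymes specific to ERK, Dusp6 rose and Dusp7 did not pass the test. Dusp6, or MKP-3, stood at 9.92 to 15.3 CPM with a median of 12.7 with vehicle and at 24.8 to 31.1 CPM with a median of 29.7 with HDM. The groups did not overlap, and numbers 5 and 6 were the lowest within each. Its log2 fold change was 1.22 ± 0.10 (adjusted p = 4.93e-06), and its ratio ran from 2.02 to 2.64 across numbers. Dusp7, a close relative of Dusp6, stood at 58.8 to 68.1 CPM with vehicle (median 62.6) and at 64.8 to 76.3 CPM with HDM (median 72.2). Its groups overlapped. The log2 fold change of 0.17 ± 0.05 missed the threshold (adjusted p = 0.0963), and with the library number as a block it was 0.17 ± 0.03 and passed (adjusted p = 0.000603). DESeq2 also called it (adjusted p = 0.0438).

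None of the 3 enzymes that prefer JNK and p38 passed the test. Dusp8, studied mainly in brain and heart, was low, at 3.61 to 10.2 CPM with vehicle (median 4.57) and 7.57 to 13.8 CPM with HDM (median 9.73). The overlap came from the vehicle libraries numbered 5 and 6, at 7.61 and 10.2 CPM, while the other vehicle libraries did not exceed 4.67. Its log2 fold change was 0.85 ± 0.26 (adjusted p = 0.0932). The change passed the test without the vehicle library numbered 6 (1.11, adjusted p = 0.00874), with the block (0.88 ± 0.09, adjusted p = 2.67e-06), in DESeq2 (adjusted p = 0.0193) and in limma-voom (adjusted p = 0.0239).

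Dusp10, or MKP-5, acts on JNK and p38 in both nucleus and cytoplasm. Its level was 2.48 to 6.89 CPM with vehicle (median 4.06) and 3.78 to 5.86 CPM with HDM (median 4.35), with HDM inside the vehicle range. The log2 fold change was 0.02 ± 0.21 (adjusted p = 1.00), higher in 2 of 6 numbers, and it ran from -0.10 to 0.16 as libraries were left out. Dusp16, or MKP-7, shuttles between nucleus and cytoplasm and prefers JNK. It stood at 26.6 to 41.0 CPM with vehicle (median 31.4) and 29.4 to 47.2 CPM with HDM (median 33.6), and the ranges overlapped. Its log2 fold change was 0.17 ± 0.14 (adjusted p = 0.763), and 0.16 ± 0.03 with the block (adjusted p = 0.00246), where each of the 6 ratios was between 1.03 and 1.20.

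Dusp14, or MKP-6, is a small atypical member that lacks the kinase-docking domain of the others. It was the scarcest of the 10, with 34 to 282 reads per library. Vehicle libraries held 0.898 to 1.76 CPM (median 1.08) and HDM libraries 1.25 to 4.25 CPM (median 2.35). The HDM library numbered 4, at 1.25 CPM, lay below the vehicle library numbered 5, and the HDM libraries numbered 5 and 6 were the highest, at 4.25 and 4.13 CPM. The log2 fold change was 1.27 ± 0.28 (adjusted p = 0.0170). With neighbouring numbers summed it was 1.26 and did not pass (adjusted p = 0.350).

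**Figure D3:**
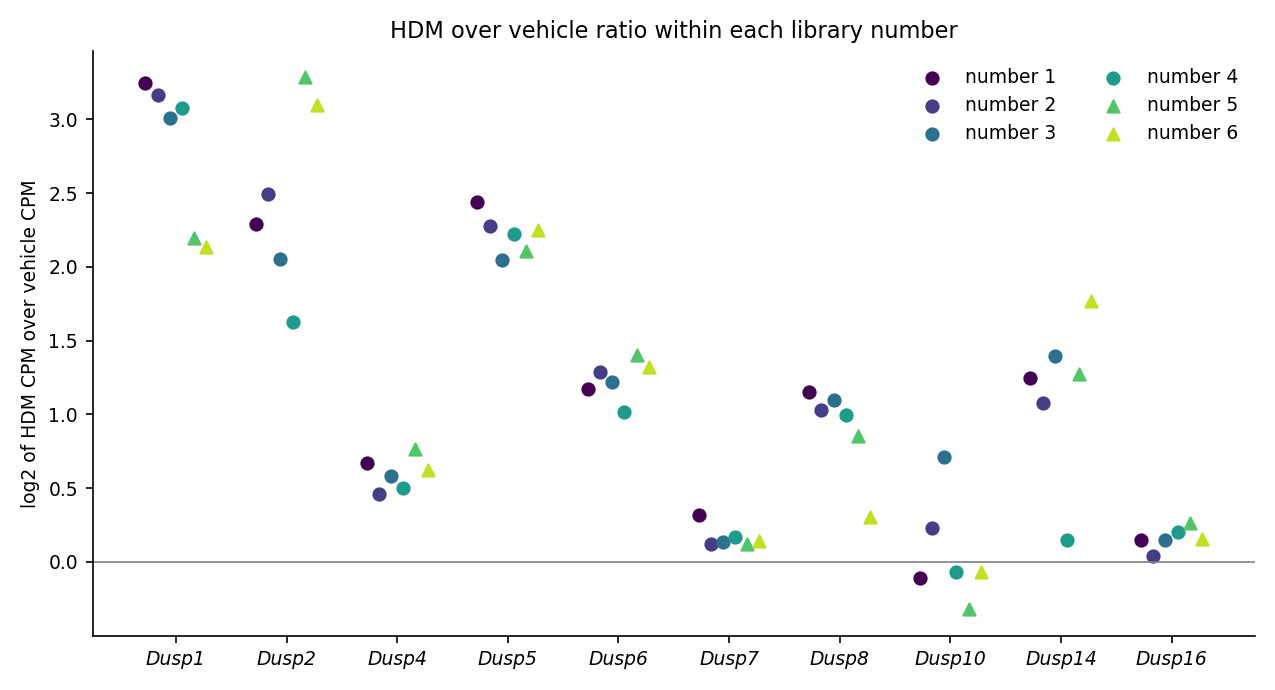
Log2 ratio of HDM over vehicle CPM within each library number (vertical axis) for the 10 genes (horizontal axis), marked by set of numbers. Dusp1 has its lowest ratios in numbers 5 and 6, 4.59 and 4.38 on the linear scale, where Dusp2 has its highest, 9.75 and 8.57.

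The size of the response differed between the sets of libraries by the test of that difference in 1 of the 10 genes. The ratio of HDM to vehicle for Dusp1 was 9.48, 8.98, 8.04 and 8.44 in numbers 1 to 4 and 4.59 and 4.38 in numbers 5 and 6. The HDM levels differed less between the sets than the vehicle levels: numbers 5 and 6 were 1.26-fold those of 1 to 4 with HDM and 2.43-fold with vehicle. The difference of the log2 effect, a contrast added after the data were seen, was -0.96 ± 0.09 (adjusted p = 0.000135), and 0.0813% of tested genes, 11 in all, were called in it. That count was 40 without HDM 1, 5 without HDM 5, 6 without HDM 6 or vehicle 5 and 4 without vehicle 6, with Dusp1 called in each. Dusp1 rose within each set, by 3.12 in numbers 1 to 4 and by 2.17 in numbers 5 and 6 on the log2 scale. Dusp2 leaned the other way, with ratios of 4.90, 5.65, 4.16 and 3.08 in numbers 1 to 4 and 9.75 and 8.57 in numbers 5 and 6. Its difference of 1.06 ± 0.27 did not pass (adjusted p = 0.383). It passed with the block (1.04, adjusted p = 0.0372) and without the vehicle library numbered 2 (1.22, adjusted p = 0.0428). The other 8 genes had adjusted p from 0.792 to 0.988 for this difference. If numbers 5 and 6 of a treatment share a culture, the p-values of this difference are too small. What separates the sets is not given in the labels, and its part in these values was not tested.

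Among vehicle libraries alone, 7 of the 10 genes had a higher mean in numbers 5 and 6 than in 1 to 4. Beside Dusp1, the largest ratios between sets were 2.16 for Dusp8 and 1.79 for Dusp10. Dusp2, Dusp6 and Dusp7 had ratios of 0.538, 0.745 and 0.918. These are descriptions of sets that were seen to stand apart, with no test. Deviations from the group means over the 12 libraries show the same opposition: Dusp1 correlated at 0.80 with Dusp5 and 0.85 with Dusp8, but at -0.83 with Dusp6. The 12 points share their library and its set, so the correlations carry no p.

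The make-up of the family was shifted toward Dusp1 after HDM. Reads on the 10 genes together came to 405 ± 85.7 CPM with vehicle and 1321 ± 152 CPM with HDM. Without Dusp1 the sums were 270 ± 18.8 and 458 ± 44.8 CPM. Dusp1 made up 24.3% to 43.4% of these reads with vehicle (31.8% ± 9.0, SD) and 64.2% to 66.0% with HDM (65.3% ± 0.710), so its share was wider among vehicle libraries than among HDM libraries. The mean share of Dusp4 was 31.8% with vehicle and 14.5% with HDM, that of Dusp7 16.3% and 5.49%, and that of Dusp5 5.04% and 7.10%. These shares follow from the same counts as the tests above and were not tested again.

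**Figure D4:**
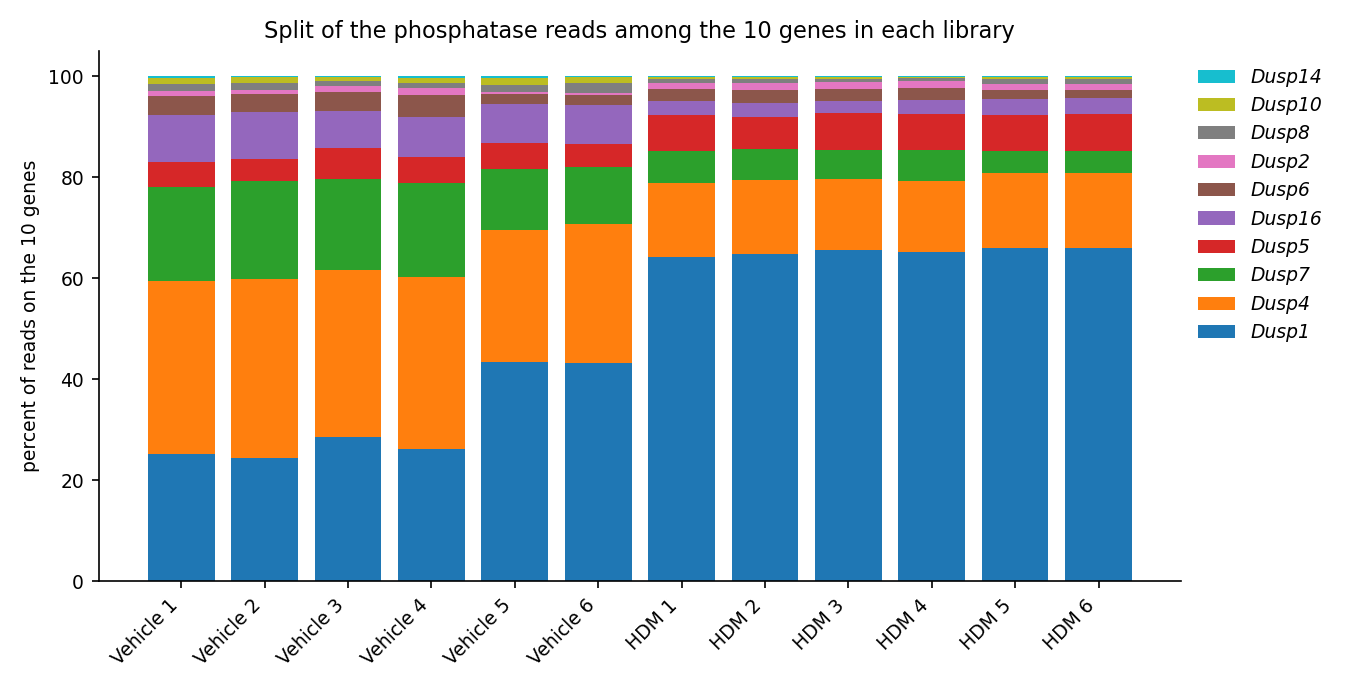
Percent of the reads on the 10 phosphatase genes (vertical axis) that fall on each gene, stacked per library (horizontal axis). Dusp1 takes between 24.3% and 43.4% with vehicle and between 64.2% and 66.0% with HDM.

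Levels of different genes were compared per kb of exon, with lengths from GENCODE M21. With vehicle the mean CPM per kb fell in the order Dusp1 (57.0 ± 28.7), Dusp4 (46.0 ± 3.97), Dusp7 (19.8), Dusp5 (8.22), Dusp6 (4.42), Dusp16 (4.40), Dusp2 (2.03), Dusp10 (1.65), Dusp8 (1.19) and Dusp14 (0.666). The ranges over libraries overlapped between Dusp1 and Dusp4, between Dusp6 and Dusp16, and between each neighbouring pair from Dusp2 to Dusp14. With HDM the order of means per kb was Dusp1 (364 ± 45.2), Dusp4 (70.0), Dusp5 (38), Dusp7 (22.2), Dusp2 (10.7), Dusp6 (10.3), Dusp16 (4.94), Dusp8 (2.12), Dusp10 (1.65) and Dusp14 (1.57). There Dusp1 stood clear of Dusp4 in every library, and the neighbours in this order with overlapping ranges were Dusp2 and Dusp6, Dusp8 and Dusp10, and Dusp10 and Dusp14. With the longest transcript in place of all exons, Dusp16 passed Dusp6 with vehicle and Dusp14 passed Dusp10 with HDM. Close neighbours in these orders are uncertain, since the sources used here do not name the annotation behind the counts.

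The genes whose log2 CPM ran most like a phosphatase over the 12 libraries were sought among 8389 tested genes whose mean was 10 CPM or more. Symbols with the pattern of gene models or clones were left out beforehand. That pattern also left out any symbol that begins with E and a digit. The correlations mix the treatment step with the set difference and are descriptions. Nearest to Dusp1 were Fos (r = 0.998), Ptgs2 (0.994), which makes prostaglandins, and Fosb (0.993). Nearest to Dusp2 were Ptger4 (0.990), Nfkbiz (0.988) and Trib1 (0.987). Dusp5 ran with the nuclear receptor gene Nr4a1 (0.997), the chemokine Cxcl1 (0.996) and Zfp36 (0.994). Dusp4 ran with Lif (0.990), Plk2 (0.990) and Odc1 (0.988), and Dusp6 with Socs3 (0.993), Il10 (0.991) and Myc (0.988). For the other 5 genes the nearest neighbours had lower correlations. Dusp14 ran with Nfe2l2 (0.959), the stress factor NRF2, with Acod1 (0.952), the itaconate enzyme, and with Cdc42ep4 (0.949). Dusp8 was nearest to Nt5dc3 (0.981), Flrt3 (0.980) and Fbxo45 (0.973), and Dusp7 to Nrros (0.942), Kif3c (0.935) and Fam214b (0.922). Dusp10 was nearest to Fmn1 (0.962), Clstn1 (0.954) and Myof (0.953), and Dusp16 to Cerk (0.971), Csf1 (0.968) and Egr2 (0.968).

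The genes around these phosphatases were followed by role, from lists that, like the members, were chosen with earlier results known. Of 21 further dual-specificity phosphatases, 16 were tested and none was called, with 4 at an unadjusted p under 0.05 and none called by DESeq2 or limma-voom. Over all tested genes, 1889 of 13530 had an unadjusted p under 0.05. The median log2 fold change of the 16 was -0.03. With the block 1 rose and 2 fell, beside 14.7% of all tested genes called in either direction. The smallest p was that of Dusp19 at 0.17 ± 0.05 (adjusted p = 0.0983), followed by Dusp18 at -0.21 ± 0.07 (0.136). Among the fits that left out a library, Dusp19 was called in 1, without HDM 5 (edgeR, adjusted p = 0.0260). Of 10 other phosphatases of MAP kinases 8 were tested, and 1 fell: Ppm1d, the WIP1 phosphatase of p38 and p53 signalling, had means of 15 CPM with vehicle and 12.2 CPM with HDM and fell by 0.30 ± 0.05 in log2 CPM (adjusted p = 0.00360). With neighbouring numbers summed, Ppm1d was not called. In the main fit 2.47% of all tested genes were called lower.

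The kinase genes were read against the 5.37% of all tested genes called in either direction. Of 13 MAP kinase genes 10 were tested and 1 was called: Mapk7, which encodes ERK5, fell by 0.20 ± 0.05 (adjusted p = 0.0408). That call was lost in 9 of the 12 fits that left out a library, those without HDM 1, 2, 5 or 6 or vehicle 1, 3, 4, 5 or 6, with adjusted p from 0.0307 to 0.0989 over the 12. None of the 7 MAP2 kinases, the 17 tested MAP3 kinases and RAF genes or the 10 kinases downstream of MAP kinases was called by edgeR, DESeq2 or limma-voom, with 2, 0 and 1 at an unadjusted p under 0.05. With the block, 1 of 7, 1 of 17 and 3 of 10 were called, beside 14.7% of all tested genes. In numbers 1 to 4 alone, 1 MAP2 kinase and 3 MAP3 kinases or RAF genes were called, beside 7.88% of all tested genes. In numbers 5 and 6 alone, 2 MAP3 kinases or RAF genes and 1 downstream kinase were called, beside 8.47%. Map3k14, the NF-kB inducing kinase, was the MAP3 kinase called with the block, at 0.38 (adjusted p = 2.37e-05). Without the block it was at 0.36 ± 0.22 (adjusted p = 0.608).

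Of 14 other inhibitors of the ERK pathway, 12 were tested and 3 rose, or 5 with 1 that fell under the block. Over all tested genes 2.9% were called higher, and with the block 7.9% were higher and 14.7% called in either direction. Spry2, a Sprouty inhibitor of receptor signalling to RAS, stood at 7.27 ± 0.811 CPM with vehicle and 20.04 ± 2.64 CPM with HDM, a log2 fold change of 1.47 ± 0.09 (adjusted p = 4.41e-07). Errfi1, an inhibitor of the EGF receptor, stood at 8.93 ± 0.760 and 19.1 ± 1.74 CPM (1.09 ± 0.07, adjusted p = 4.96e-07). In both, every HDM library lay above every vehicle library, which held for 2.32% of tested genes. The third, Spred1, rose by 0.13 ± 0.03 (adjusted p = 0.0405) and lost its call in 9 of the 12 fits that left out a library, those without HDM 1, 2, 3, 4 or 6 or vehicle 1, 2, 4 or 6, with adjusted p from 0.0249 to 0.0974.

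The last groups were the transcription factors at the end of MAP kinase pathways and the mRNA decay factors. Of 27 transcription factors 25 were tested, of which 11 rose and 1, Atf4, fell by 0.20 (adjusted p = 0.0423). Over all tested genes 2.9% were called higher and 2.47% lower. The Atf4 call was lost in 9 of the 12 fits that left out a library, those without HDM 1, 2, 5 or 6 or vehicle 1, 2, 3, 4 or 6, with adjusted p from 0.0394 to 0.108. By smallest p the leading factors were Myc (1.38 ± 0.09, adjusted p = 3.75e-07), Jun (0.75 ± 0.05, 6.92e-07), Fos (2.68 ± 0.25, 1.79e-05) and Ets2 (0.64 ± 0.07, 7.33e-05). With the block, 18 rose and 2 fell, beside 14.7% of all tested genes called in either direction. With neighbouring numbers summed 3 were called. All 9 decay factors were tested and 4 rose, or 6 with the block and 2 with neighbouring numbers summed. The share of all tested genes called higher was 2.9%, and 7.9% with the block. Zfp36, tristetraprolin, which destabilises AU-rich mRNAs and is itself a target of p38 signalling, went from 102 ± 22.1 to 633 ± 37.2 CPM (2.63 ± 0.13, adjusted p = 3.53e-08). Zfp36l1 rose by 1.74 ± 0.13 (1.92e-06), Zc3h12a, the regnase-1 gene, by 0.33 ± 0.07 (0.0121) and Elavl1, the HuR gene, by 0.16 ± 0.03 (0.0137). The median log2 fold changes were 0.06 for the ERK inhibitors, 0.20 for the transcription factors and 0.19 for the decay factors.

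**Figure D5:**
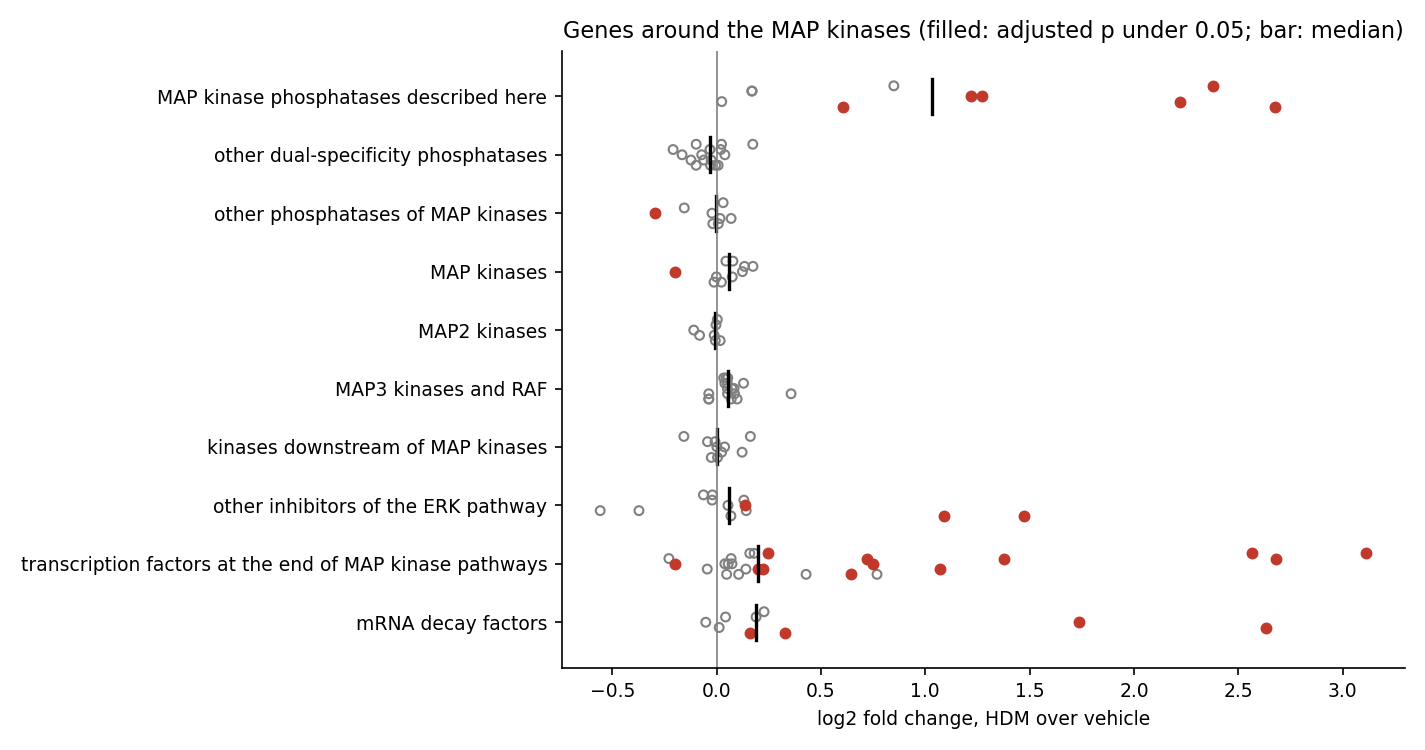
Log2 fold change of HDM over vehicle (horizontal axis) for each tested gene of the phosphatases and of the lists around them (vertical axis), filled where called and with a bar at the median of each list. The 10 phosphatases have a median of 1.03, and the other lists have medians between -0.03 and 0.20.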

How the data were processed

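RNA sequencing was done on poly(A)-selected, stranded libraries, per the labels' protocols. The authors deposited 1 table of raw counts, unscaled, with a line for each gene symbol. The submitters' processing notes name STAR 2.6.0c and featureCounts 2.0.6 of Subread, with Trim Galore 0.6.10, cutadapt 4.5 and FastQC 0.12.1. They also name the builds GRCm38 and mm39, with no role for either. For the annotation, the strand setting and the read layout: not given in the sources used here. Reads of a gene and of an antisense or overlapping partner may therefore be mixed.

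Groups and numbers came from the sample titles and the treatment label. Tests on these counts used edgeR 4.0.16, with R 4.3.3 and limma 3.58.1: TMM factors, the filterByExpr filter with a minimum count of 10, a two-sided quasi-likelihood F test on treatment alone, Benjamini-Hochberg adjustment over 13530 genes and a threshold of 0.05. The fit was checked on simulated counts drawn independently for each library. They held no split between the sets and no likeness of neighbouring numbers, so the check does not cover either. SE is the log2 fold change divided by the square root of F. CPM are TMM-scaled, and correlations used log2(CPM + 0.5). A second fit added the library number as a block. Deviations from the group means correlated across genes between HDM and vehicle libraries of the same number at 0.581, 0.466, 0.544, 0.599, 0.762 and 0.783. All exceed the bound of 0.1, so the numbers were taken to pair the libraries, a reading from the values alone, since the labels are silent. HDM and vehicle libraries of different numbers within a set exceeded it too. They correlated at 0.262 to 0.644 in numbers 1 to 4 and at 0.747 to 0.805 in 5 and 6. The bound therefore could not tell pairing by number from the split between the sets. Only 3 of the 6 HDM libraries correlated best with their own number. No 2 libraries of a group differed by as little as sampling noise, but neighbouring numbers were mostly the closest. Their index of dispersion (chi-square over degrees of freedom) ran from 2.27 to 21.0, the highest being HDM 1 and 2. It ran from 10.4 to 17.5 in other pairs within numbers 1 to 4 and from 46.1 to 96.1 across the sets. Depth had a median of 41.7 M reads with vehicle and 41.1 M with HDM.

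Alternatives were other scaling factors, DESeq2 1.42.0, limma-voom, a robust fit, other count filters, the block, each set of numbers alone, neighbouring numbers summed, and leaving out each library. The members and gene lists were chosen with earlier results of these data known. All 10 members are named, with up to 4 tested genes of each list by smallest p and the 3 genes most correlated with each member in the search above. Atf4, Dusp3, Dusp9 and Map3k8 are named beyond this rule, after their values were seen. Promoter windows are from RefSeq (GRCm38.p6). A further marker gene is not reported here.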

Additional observations from a re-analysis of the deposited data

Results flagged for a closer look

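The HDM effect differed between the library numbers 5 and 6 and the numbers 1 to 4 in 5 of the genes named above and in Map3k8, by the contrast of the effects in edgeR with Benjamini-Hochberg adjustment, added after the data were seen. For Dusp1 the difference was -0.96 ± 0.09 on the log2 scale (adjusted p = 0.000135), with means of HDM 8.69-fold those of vehicle in numbers 1 to 4 and 4.48-fold in 5 and 6. Fos, Fosb and Ptgs2 were named because they follow Dusp1 over these same libraries, so their differences are given as values and add no support to that of Dusp1. For Fos the difference was -0.93 ± 0.16 (adjusted p = 0.0320), with 8.49-fold and 4.48-fold. For Fosb it was -0.92 ± 0.15 (adjusted p = 0.0282), with 12.2-fold and 6.49-fold. For Ptgs2 it was -1.22 ± 0.18 (adjusted p = 0.0111), with 86.0-fold and 37.7-fold. In these 4 genes the vehicle means were higher in numbers 5 and 6: 223 against 91.5 CPM for Dusp1, 156 against 70.2 for Fos, 81.2 against 23.0 for Fosb and 26.8 against 7.77 for Ptgs2.

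Nfkbiz, an inducible regulator of NF-kB targets, was named because it follows Dusp2 over these libraries, so its direction restates that choice. Its difference was 1.12 ± 0.09 (adjusted p = 4.04e-05), with 3.36-fold in numbers 1 to 4 and 7.26-fold in 5 and 6. Its vehicle mean was lower in numbers 5 and 6, at 27.3 against 49.9 CPM. Map3k8, a MAP3 kinase of the ERK pathway in macrophages, was singled out after its values were seen. Its difference was 0.47 ± 0.08 (adjusted p = 0.0496), with HDM means 0.919-fold those of vehicle in numbers 1 to 4 and 1.27-fold in 5 and 6. With a library left out its adjusted p ran from 0.0394 to 0.527, and it passed only without HDM 1 and without vehicle 4.

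Within the 6 vehicle libraries, the level of Dusp14 in number 5, 1.76 CPM from 34 reads, stood apart from the next. The gap was 0.638 of the whole range, above Dixon's critical value for 6 libraries. Of the 20 groups examined, 1 stood out in this way, and chance flags about 1 in 20 groups.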

How the results depend on the processing

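Dusp1, Dusp2, Dusp5 and Dusp6 kept their direction and call in all 23 alternatives, and none of the 6 risers lost its call when a library was left out. Dusp14 came close to losing it, with an adjusted p of up to 0.0460 in those edgeR fits. The other risers reached at most 0.00210. The number of the 10 genes called ran from 4 with neighbouring numbers summed to 9 with the replicate block. With neighbouring numbers summed, Dusp4 (0.60, adjusted p = 0.119) and Dusp14 (1.26, adjusted p = 0.350) were not called. Dusp7 was called by DESeq2 (0.17), with the block (0.17) and in numbers 1 to 4 alone (0.19). Dusp8 was called by DESeq2 (0.84), limma-voom (0.98), with the block (0.88), in numbers 5 and 6 alone (0.52), in numbers 1 to 4 alone (1.08) and without the vehicle library numbered 6, with values from 0.74 to 1.11 as libraries were left out. Dusp16 was called with the block (0.16) and in numbers 5 and 6 alone (0.21). Dusp10, not called in any of the 23, changed sign in numbers 5 and 6 alone (-0.17) and when HDM 5 (-0.03), HDM 6 (-0.05), vehicle 1 (-0.00), vehicle 2 (-0.02), vehicle 3 (-0.10) or vehicle 4 (-0.01) was left out, with a range from -0.10 to 0.16. The cause of these changes was not tested.

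Over all genes, 727 were called, 393 higher and 334 lower. There were 1990 with the replicate block, 1139 in numbers 5 and 6 alone, 119 with neighbouring numbers summed (3 samples per group) and 561 to 694 with a library left out. What lies behind the count of 119 was not tested. Upper-quartile factors gave 360 higher and 408 lower, and unscaled library sizes 347 and 413, and no member changed direction or call under either. Of the genes on the other lists 21 were called, with 43 under the block, 32 in numbers 1 to 4 alone, 7 with neighbouring numbers summed and 18 to 22 with a library left out. The difference between sets, added after the data were seen, was called for 11 genes, for 64 with the replicate block and for 4 to 40 with a library left out, 40 without HDM 1. It fell to 5 without HDM 5, 6 without HDM 6, 6 without vehicle 5 and 4 without vehicle 6. For Dusp1 it ran from -1.02 to -0.91 over 16 alternatives and passed in each. None of them summed neighbouring numbers, so they cannot tell whether numbers 5 and 6 are independent samples. The smallest counts were 34 reads for Dusp14 and 38 for Dusp2. Neighbouring numbers may share a culture, in which case each group holds fewer independent samples and the p-values are too small.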

Other observations

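Dusp9, a further phosphatase specific to ERK that is not among the 10 genes, was singled out after its values were seen. Its mean was 9.14 ± 4.32 CPM with vehicle and 9.18 ± 4.69 CPM with HDM, a log2 fold change of 0.02 ± 0.35 (edgeR, adjusted p = 1.00). It was higher with HDM in 2 of 6 library numbers. Dusp3, the small atypical phosphatase VHR, chosen in the same way, stood at 282 ± 8.41 CPM with vehicle and 275 ± 6.34 CPM with HDM (-0.03 ± 0.03, adjusted p = 0.831).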
